A study of Mus musculus with 6 samples.

Results

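Genes of cyclic nucleotide signalling were compared between ribosome-bound RNA of tagged neurons and RNA titled input, from the midbrain of adult mice. The members were the count table entries whose symbol names an adenylyl cyclase (Adcy), a guanylyl cyclase (Gucy1 or Gucy2), a cyclic nucleotide phosphodiesterase (Pde), a catalytic or regulatory subunit of protein kinase A (Prkac, Prkar) or an A-kinase anchoring protein (Akap). This gave 63 of 32531 entries: 10 adenylyl cyclases, 9 guanylyl cyclase genes, 24 phosphodiesterases, 6 protein kinase A subunits and 14 anchoring proteins. A filter on low counts left 54 of them for testing, and 9 were not tested.

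Both groups came from untreated adult mice of the Lhx5-TRAP line DT154, in which EGFP fused to the ribosomal protein Rpl10a is expressed as a transgene named for Lhx5, a LIM homeodomain factor of neurons. IP libraries (3) hold RNA from polysomes pulled down through the EGFP tag. Libraries titled input (3) carry a second label, unbound, and it cannot be told from the labels whether their RNA was taken before or after the pull-down. The name input is kept for them. Whether the replicates were separate animals is not stated in the labels. All p-values therefore rest on the spread among these libraries, which may be technical.

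Adenylyl cyclases make cyclic AMP from ATP downstream of G protein-coupled receptors, and guanylyl cyclases make cyclic GMP downstream of nitric oxide or natriuretic peptides. Phosphodiesterases break both messengers down. Cyclic AMP binds the regulatory subunits of protein kinase A and releases the catalytic subunits, and anchoring proteins hold the kinase at chosen sites such as synapses, centrosomes or mitochondria. In neurons the pathway sets excitability and synaptic strength, and its isoforms differ in how calcium and G proteins regulate them.

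Each library held between 38058239 and 45841499 counts on genes. The Lhx5 gene had 46.8, 56.0 and 49.1 CPM (counts per 1000000, TMM-scaled) in IP replicates 1, 2 and 3 and 2.20 to 3.92 CPM in input. Of 10 pan-neuronal markers 9 were higher in IP, and all 10 oligodendrocyte, 8 of 10 astrocyte, 9 of 10 microglial, 9 of 10 endothelial and 9 of 10 mural markers were lower. Their part in the results below was not tested. Summed oligodendrocyte markers stood at 334 to 478 CPM in IP and 4063 to 4829 CPM in input. A pair of libraries stood apart. Input replicate 3 was high in striatal genes. Its Drd1 level, a dopamine receptor gene, was 73.2 CPM where input replicates 1 and 2 had 11.2 and 3.37 CPM. Its level of Slc6a3, a marker of midbrain dopamine neurons, was 4.98 CPM where they had 62.4 and 52.3 CPM. IP replicate 2 was high in Purkinje cell genes, with 555 CPM of Car8 against 22.4 and 20.9 in IP replicates 1 and 3.

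Of the 54 tested members 12 were higher in IP, 18 were lower and 24 passed in neither direction (adjusted p under 0.05 over all genes, edgeR's quasi-likelihood test). Among all 17197 tested genes 26.0% were higher and 27.9% lower. By class, the calls fell as follows. Of 6 protein kinase A subunits 5 rose and 0 fell. Of 9 tested adenylyl cyclases 4 rose and 2 fell. Of 19 tested phosphodiesterases 3 rose and 7 fell, and of 8 tested guanylyl cyclase genes 0 rose and 2 fell. Of 12 tested anchoring proteins 0 rose and 7 fell. Adcy10 and Akap14 had under 10 counts in every IP library and passed the filter through input alone, so their direction was fixed by the filter. Without them 16 members were lower, among them 1 adenylyl cyclase and 6 anchoring proteins. The median log2 fold change was 0.69 for the kinase subunits, 0.31 for adenylyl cyclases, -0.21 for guanylyl cyclases, -0.27 for phosphodiesterases and -0.64 for anchoring proteins, against -0.01 for all tested genes. No member was shown to be higher by more than 2-fold, where 2.25% of all genes were. Pde8a, Akap5 and Akap13 were lower by more than 2-fold (glmTreat in edgeR), and 12.9% of all genes were. In bulk RNA, fewer cells of a type and less RNA per cell cannot be told apart. As IP holds RNA from polysomes, a smaller share of a gene's RNA on polysomes cannot be told from these either.

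**Figure D1:**
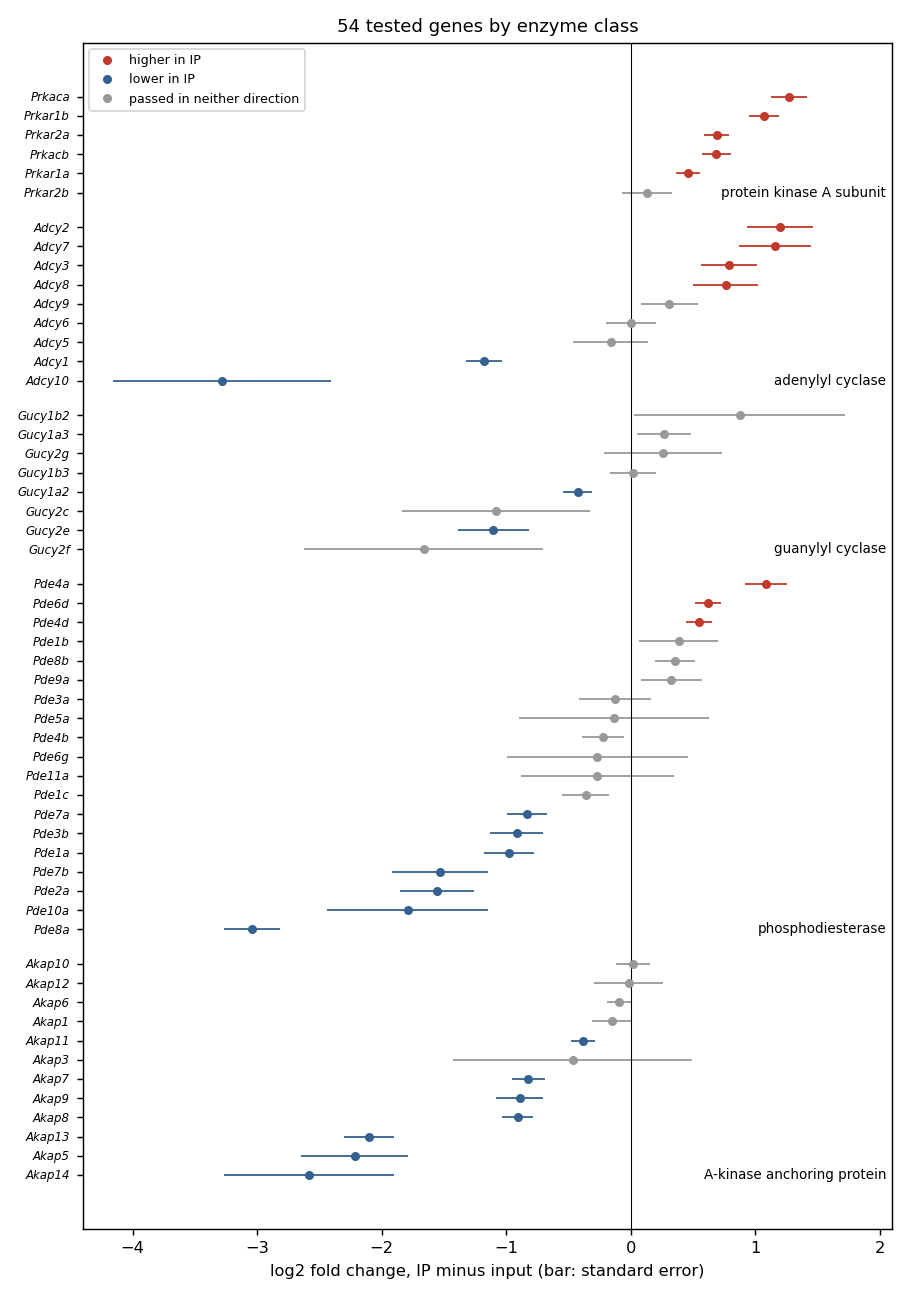
Log2 fold change of IP over input for the 54 tested genes, one row per gene, grouped by enzyme class and ordered by size. Points are edgeR estimates and bars are standard errors. Red genes were higher in IP, blue genes lower, and grey genes passed in neither direction. All 6 kinase subunits lie right of 0, and 11 of the 12 anchoring proteins lie left of it.

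Without input replicate 3, 14 members were higher and 17 lower. Leaving out both input replicate 3 and IP replicate 2 gave 13 and 18, with 6 kinase subunits higher and 6 anchoring proteins lower. Upper-quartile scaling placed the median of all genes at -0.17 and called 3429 genes higher and 5567 lower, against 4467 and 4794 with TMM. Under that scaling 11 members were higher and 18 lower, and 5 kinase subunits and 7 anchoring proteins kept their calls.

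Both catalytic subunits of protein kinase A rose. Prkaca, the gene of the alpha catalytic subunit, had 357, 361 and 493 CPM in IP replicates 1 to 3 and 173, 164 and 166 CPM in input. Every IP library was above every input library, as in 30.7% of all tested genes, and IP replicate 3 was the highest. In another 32.8% of genes every IP library was below every input library. On average IP was 2.41 times input, or 1.27 on the log2 scale (SE 0.14, adjusted p 0.000218 in edgeR's quasi-likelihood test). Prkacb, the beta catalytic subunit gene, had 1251, 1170 and 1255 CPM in IP and 703, 705 and 877 CPM in input. These groups did not overlap either, and Prkacb rose by 0.69 (SE 0.12, adjusted p 0.0015). On a scale of CPM per kilobase of annotated exon, which allows different genes to be set side by side, Prkaca stood at 67.3 ± 1.79 in input and 162 ± 31.1 in IP, and Prkacb at 86.8 ± 11.3 and 140 ± 5.49 (SD, n = 3 each). The ratio of Prkaca to Prkacb on that scale was 0.784 ± 0.104 in input and 1.16 ± 0.199 in IP. It ran from 0.667 to 0.865 in input and from 1.01 to 1.38 in IP, without overlap.

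Regulatory subunits of type I, which are largely soluble, also rose. Prkar1a, the most abundant member per kilobase, had 1569, 1456 and 1413 CPM in IP against 1090, 1045 and 1093 CPM in input. Its IP libraries all lay above its input libraries, and its rise was the smallest of the 5 called subunits, 0.46 on the log2 scale (SE 0.09, adjusted p 0.00364 in edgeR). Prkar1b, the brain-rich type I subunit, had 579, 572 and 705 CPM in IP and 285, 313 and 286 CPM in input. The groups were well apart, and Prkar1b rose by 1.07 (SE 0.12, adjusted p 0.000194). The ratio of Prkar1b to Prkar1a per kilobase was 0.311 ± 0.0251 in input and 0.477 ± 0.0783 in IP (SD, n = 3 each), from 0.296 to 0.340 and from 0.419 to 0.566. Of the exon bases of Prkar1b, 8.95% overlap another annotated gene on the same strand.

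Type II regulatory subunits, which bind most anchoring proteins, divided. Prkar2a had 169, 162 and 163 CPM in IP and 107, 94.5 and 106 CPM in input, a rise of 0.69 on the log2 scale (SE 0.10, adjusted p 0.000725 in edgeR). Prkar2b, the type II beta subunit gene that is rich in striatum, had 102, 90.3 and 99.2 CPM in IP and 74.2, 70.9 and 122 CPM in input. Only input replicate 3 lay above the IP libraries. The log2 fold change of Prkar2b was 0.13 (SE 0.20, adjusted p 0.615). Without input replicate 3 it was 0.40, with an adjusted p of 0.0196 in edgeR. With upper-quartile scaling it was -0.03.

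**Figure D2:**
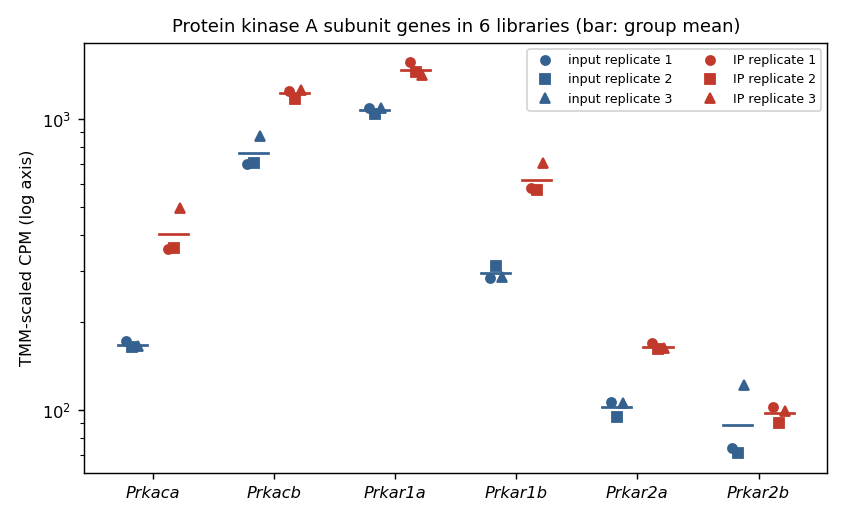
TMM-scaled CPM on a log axis for the 6 protein kinase A subunit genes. Each symbol is a library (circle, square and triangle for replicates 1, 2 and 3, blue for input and red for IP), and horizontal bars are group means. IP lies wholly above input for 5 genes, as for 30.7% of all tested genes, and for Prkar2b input replicate 3, at 122 CPM, lies above the IP libraries.

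Summed over the 6 subunits, kinase RNA stood at 856, 816 and 906 CPM per kilobase in IP and at 514, 505 and 544 in input. Catalytic over regulatory subunits gave a ratio of 0.542 ± 0.0551 for IP and 0.420 ± 0.0179 for input libraries (SD, n = 3 each), with 0.502 as the lowest IP value and 0.441 as the highest input value. Type I over type II subunits gave 9.62 ± 0.158 in IP and 8.29 ± 1.52 in input, and input replicate 1 and 2 values of 8.84 and 9.46 lay close to IP, while input replicate 3 stood at 6.57. These sums are descriptions and depend on the annotated exon lengths.

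Since protein kinase A acts on transcription through CREB, the factor of cyclic AMP response elements, the promoters of the kinase genes were searched for its motif. Promoter windows were the 250 bases before each RefSeq start (GRCm38.p6), and 52 members had at least 1 window, 100 windows in all. The full element TGACGTCA was found in 1 member window, of Prkar1a, and in 1.55% of all 32851 windows of that length. Its core TGACG, searched on both strands (CGTCA on the other), was in 19 of 100 member windows, or 19%, against 17.8% of all windows. Among the 6 kinase genes it was in 6 of 19 windows and in 4 genes, Prkaca, Prkacb, Prkar1a and Prkar1b. By gene, 19.8% of all genes and 30.8% of the 52 members held it in at least 1 window, and genes with more windows have more chances to hold it. The full element holds the core on both strands, and windows of 1 gene can overlap. The Prkaca window, which overlaps no annotated exon, is shown whole at chr8:83972728-83972977 on the plus strand, and 30 bases around a match are shown for Prkacb (chr3:146813032-146813061, minus strand), Prkar1a (chr11:109650889-109650918, plus strand) and Prkar1b (chr5:139150034-139150063, minus strand), written 5′ to 3′ along the gene with the matched letters in capitals. They are shown because these are the kinase genes that rose and hold the core.
Prkaca: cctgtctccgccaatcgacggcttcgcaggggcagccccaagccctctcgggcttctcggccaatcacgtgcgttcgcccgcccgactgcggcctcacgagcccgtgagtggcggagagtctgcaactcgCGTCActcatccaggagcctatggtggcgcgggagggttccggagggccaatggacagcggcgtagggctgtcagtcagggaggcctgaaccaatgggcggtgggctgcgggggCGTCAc
Prkacb: gggggcttgaccgCGTCActtccggcgcgc
Prkar1a: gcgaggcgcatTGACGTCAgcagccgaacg
Prkar1b: ttagagggcggagTGACGggcaggaggacg
The Prkaca window holds 2 cores, beginning 120 and 6 bases before the start. In Prkar1a the full element begins 49 bases before one of its starts. A match describes these letters only and says nothing of binding.

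Lists of genes around the kinase were compared as well, namely its inhibitors, G proteins, transcription factors, other effectors and phosphatase regulators. Among all tested genes 26.0% were higher and 27.9% lower, and the counts of these short lists are to be read beside those shares. Of 3 heat-stable inhibitor genes, which encode small proteins that block the free catalytic subunit, 2 rose and 1 did not pass. Pkia rose by 0.64 (SE 0.11, log2 fold change) and Pkib by 1.09 (SE 0.12). The adjusted p was 0.00164 and 0.000231 in edgeR. Pkig stood at -0.07. Of 7 G protein alpha genes 3 rose, 1 fell and 3 did not pass. Gnas, which encodes the stimulatory alpha subunit and has antisense transcripts at its locus, had 4458, 3983 and 4638 CPM in IP and 2063, 1875 and 1806 CPM in input, and rose by 1.19 (SE 0.11). Gnaz and Gnao1, of the inhibitory class, rose by 1.10 and 0.48, and Gnai3 fell by 0.75. Of 8 genes of CREB-type transcription 0 rose, 5 fell and 3 did not pass. Creb1 itself fell by 0.51 on the log2 scale (SE 0.11), Crtc3, a CREB coactivator, by 0.96, Crtc2, another, by 0.68, Atf1, a CREB relative, by 0.67, and Crebbp by 0.41. Of 9 tested other effectors of cyclic nucleotides 3 rose, 2 fell and 4 did not pass. The pacemaker channel genes Hcn2 and Hcn3 rose by 0.73 and 1.39. Hcn4, of the same family, rose as well, with 832, 720 and 715 counts in IP and 450, 379 and 304 in input. The cyclic AMP-activated exchange factor genes Rapgef3 and Rapgef4 fell by 1.31 and 0.97. Of 5 phosphatase regulator genes 1 rose, 2 fell and 2 did not pass. Ensa rose by 0.86 (SE 0.11). Arpp21 and Ppp1r1b, both striatum-rich, fell by 1.79 (SE 0.58) and 3.63 (SE 1.12), with adjusted p of 0.031 and 0.0321 in edgeR. Input replicate 3 held 833 CPM of Arpp21 and 316 CPM of Ppp1r1b, against 201 and 55.1 CPM or less in the other inputs. Ppp1r1b had 6.62, 20.3 and 4.85 CPM in IP, and its input replicate 2, at 21.7 CPM, lay just above IP replicate 2.

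Among adenylyl cyclases Adcy1 fell and Adcy2 rose. Adcy1, a calcium- and calmodulin-stimulated isoform, had 153, 129 and 108 CPM in IP and 295, 321 and 271 CPM in input. All IP libraries were below all input libraries, by a factor of 2.27 (log2 fold change -1.18, SE 0.15, adjusted p 0.000325 in edgeR). Adcy2, an isoform stimulated by G protein beta-gamma subunits, had 102, 93.1 and 57.3 CPM in IP and 40.0, 45.0 and 25.1 CPM in input. The groups did not overlap and replicate 3 was the lowest of each. Adcy2 rose by 1.20 (SE 0.26, adjusted p 0.00518). The order of the genes differed only per kilobase, since Adcy1 had more CPM than Adcy2 in all 6 libraries. Per kilobase of exon Adcy1 was the most abundant cyclase in input, at 23.6 ± 2.02 CPM, or 36.4% of the class, and Adcy2 the most abundant in IP, at 20.0 ± 5.60 CPM, or 28.6% (SD, n = 3 each). In IP the next was Adcy9 at 16.2 ± 4.95, within the spread of Adcy2. The ratio of Adcy2 to Adcy1 per kilobase was 1.90 ± 0.290 for IP and 0.365 ± 0.0776 for input, from 1.58 to 2.14 and from 0.276 to 0.416.

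Adcy7, the other tested isoform of the beta-gamma-stimulated group, had 23.1, 15.5 and 13.7 CPM in IP and 11.0, 6.78 and 5.75 CPM in input. It rose by 1.16 (SE 0.29, adjusted p 0.00929 in edgeR), with no overlap. Without both IP replicate 2 and input replicate 3 it stood at 1.01 (adjusted p 0.0533). Adcy3, a calcium-stimulated isoform known from olfactory and neuronal cilia, had 24.4, 21.4 and 14.3 CPM in IP and 12.7, 12.8 and 9.23 CPM in input, a rise of 0.79 (SE 0.23, adjusted p 0.0174). Of its exon bases, 22.1% overlap the antisense gene Cenpo, whose reads cannot be told apart without strand. Adcy8, stimulated by calcium and calmodulin like Adcy1, had 58.4, 49.6 and 32.5 CPM in IP and 32.7, 31.6 and 18.7 CPM in input. Its IP replicate 3 lay just under input replicate 1, and the log2 fold change was 0.76 (SE 0.26, adjusted p 0.0372). Adcy3 was no longer called when IP replicate 1, the second IP library or input replicate 3 was left out (log2 fold change 0.63, 0.71 and 0.63, adjusted p 0.0602, 0.0772 and 0.0688), and Adcy8 without these or input replicate 2 (0.53 to 0.87, adjusted p 0.0531 to 0.134) or with upper-quartile scaling (0.61, adjusted p 0.0751). Input replicate 3 had the lowest input value of Adcy1, Adcy2, Adcy3, Adcy6, Adcy7, Adcy8 and Adcy9. IP replicate 3 had the lowest IP value of the same genes, and Adcy5 was lowest in neither library. With a replicate block Adcy3 and Adcy8 kept their calls (0.77 and 0.76, adjusted p 0.00293 and 0.00102 in edgeR).

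The calcium-inhibited isoforms did not pass. Adcy5, the main cyclase of striatal neurons, had 70.9, 65.7 and 70.6 CPM in IP and 58.9, 49.6 and 123 CPM in input, so that the IP values lay between input replicate 3 and the other inputs. Its log2 fold change was -0.16 (SE 0.30, adjusted p 0.67), and 0.32 without input replicate 3 (adjusted p 0.0642). Adcy6 stood at 0.00 (SE 0.20). Adcy9, a forskolin-insensitive isoform, had 113, 74.7 and 64.2 CPM in IP and 73.4, 78.2 and 51.8 CPM in input (0.31, SE 0.23, adjusted p 0.285 in edgeR). Adcy10, the soluble bicarbonate-sensitive cyclase, was near its floor, with 0, 4 and 2 counts in IP and 26, 24 and 12 in input, where 3 counts correspond to 0.0687 to 0.0740 CPM. The fitted log2 fold change was -3.28 (adjusted p 0.0127), and -3.07 without input replicate 1 (adjusted p 0.0521), both from a gene that passed the filter through input alone. Adcy4 had 2 counts in IP in all and 20 in input and was not tested.

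**Figure D3:**
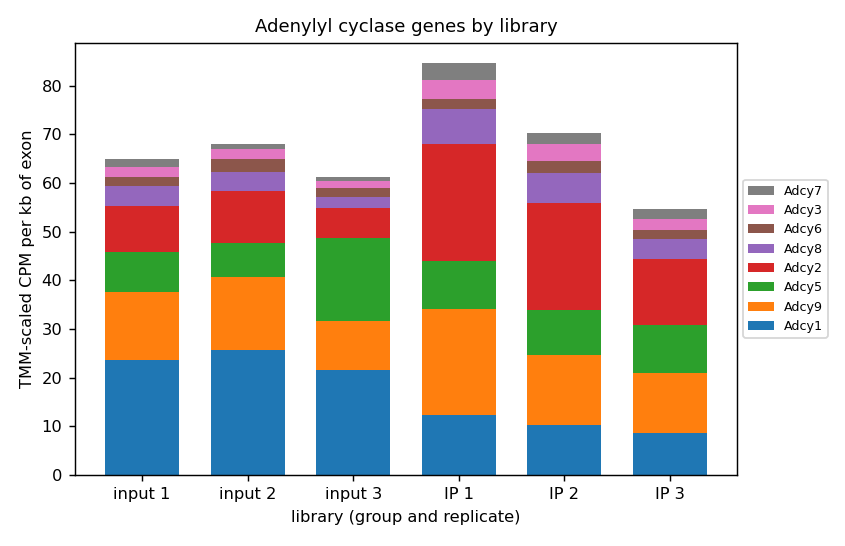
Stacked TMM-scaled CPM per kilobase of exon for the 8 adenylyl cyclase genes with a mean of at least 1 CPM in a group, in each of the 6 libraries. The Adcy1 part at the bottom is larger in every input bar than in any IP bar, the Adcy2 part is larger in every IP bar, and the Adcy5 part is largest in input replicate 3.

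Gucy1a2 and Gucy2e were the guanylyl cyclase members that fell, and the other 6 tested members of that class did not pass. The soluble enzyme is a heterodimer of an alpha and a beta subunit that binds nitric oxide through haem. Gucy1a2, the alpha 2 subunit gene, had 137, 133 and 142 CPM in IP and 170, 175 and 208 CPM in input, without overlap, and fell by 0.43 (SE 0.11, adjusted p 0.0121 in edgeR). Gucy1a3, the alpha 1 subunit gene named Gucy1a1 in current annotation, had 94.6, 68.9 and 92.1 CPM in IP and 64.1, 53.3 and 95.1 CPM in input. Only its input replicate 3 was as high as IP, and the log2 fold change was 0.27 (SE 0.22, adjusted p 0.329), or 0.51 without that library (adjusted p 0.0324). Gucy1b3, the shared beta 1 subunit now named Gucy1b1, had 0.01 (SE 0.19). Among the receptor cyclases Gucy2e, a retinal membrane cyclase, had 2.48, 2.34 and 3.57 CPM in IP and 7.23, 6.44 and 4.39 CPM in input, a fall of 1.10 (SE 0.28, adjusted p 0.0107). Gucy2f, its paralog, had 57, 5 and 2 counts in IP and 55, 89 and 61 in input. It was not called (adjusted p 0.174). Without IP replicate 1 it was called lower (adjusted p 0.00224), but its remaining IP counts of 5 and 2 are under the filter's minimum of 10. Gucy1b2, Gucy2c and Gucy2g did not pass and had means of 1.42 CPM or less in both groups. Gucy2d had 2 counts in IP in all and 1 in input and was not tested.

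Of the 9 tested genes around cyclic GMP listed apart from the symbol rule, 2 rose, 3 fell and 4 did not pass. They include Npr1 and Npr2, which encode receptor guanylyl cyclases that the symbol rule does not cover. Npr2 did not pass, at 0.09 on the log2 scale. The shares of 22.2% higher and 33.3% lower were near the 26.0% and 27.9% of all tested genes. Nos1, the neuronal nitric oxide synthase gene, rose by 0.92 (SE 0.22, log2 fold change), with 23.3 ± 5.37 CPM in IP and 12.3 ± 2.56 CPM in input (SD, n = 3 each), and the groups did not overlap. Nppc, the C-type natriuretic peptide gene, rose by 1.20. Prkg1, a cyclic GMP-dependent kinase gene, fell by 0.56 and the natriuretic peptide receptor genes Npr1 and Npr3 by 1.54 and 1.94.

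The phosphodiesterases that rose were Pde4a, Pde4d and Pde6d. PDE4 enzymes are specific for cyclic AMP and are the targets of rolipram. Pde4a had 219, 198 and 283 CPM in IP and 121, 117 and 91.3 CPM in input and rose by 1.09 (SE 0.17, adjusted p 0.000912 in edgeR), and IP replicate 3 was the highest. Pde4d had 216, 206 and 242 CPM in IP against 150, 145 and 160 in input (0.55, SE 0.11, adjusted p 0.00284). Pde6d, whose protein is a carrier of prenylated proteins and not a catalytic subunit, had 81.4, 82.9 and 91.1 CPM in IP against 57.2, 54.2 and 55.0 in input (0.62, SE 0.10, adjusted p 0.00133). In these 3 genes every IP library was above every input library, as in 30.7% of all tested genes. Pde4b, the third abundant PDE4 gene, had 103, 132 and 96.1 CPM in IP and 113, 117 and 156 CPM in input and did not pass (-0.22, SE 0.17, adjusted p 0.297). Pde4c had 8 counts in IP in all and 3 in input.

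Pde8a had the largest fall among the 19 tested phosphodiesterases. It encodes a high-affinity, IBMX-insensitive cyclic AMP phosphodiesterase, and lies on chromosome 7 from 81213596 to 81334533 (GENCODE M21, GRCm38). Its level was 3.73, 2.29 and 3.33 CPM in IP and 30.1, 24.7 and 22.2 CPM in input, 8.23 times higher in input (log2 fold change -3.04, SE 0.22, adjusted p 3.4e-05 in edgeR). The lowest input library was several times above the highest IP library. Pde8b, its paralog, stood on the other side, with 86.2, 77.0 and 104 CPM in IP and 58.7, 67.8 and 82.8 CPM in input. Only input replicate 3 reached into the IP range, and Pde8b did not pass (0.35, SE 0.16, adjusted p 0.0955). It was called higher with a replicate block (0.36, adjusted p 0.0263) and without input replicate 3 (0.47, adjusted p 0.0282). Per kilobase of exon, Pde8b had 13.1 to 17.8 CPM in IP and Pde8a 0.567 to 0.921, while in input Pde8b had 9.98 to 14.1 CPM and Pde8a 5.48 to 7.44.

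Pde10a, Pde7b and Pde2a also fell, and in each of these genes input replicate 3 was far above the other inputs. Pde10a, the dual-substrate enzyme typical of striatal projection neurons, had 65.9, 55.0 and 67.4 CPM in IP and 115, 68.3 and 467 CPM in input. Input replicate 2 lay just above the IP libraries. The log2 fold change was -1.79 (SE 0.65, adjusted p 0.0485 in edgeR), and it was -0.58 without input replicate 3 (adjusted p 0.0556), -1.28 with a replicate block (adjusted p 0.156), and -1.83 to -1.72 without any 1 of the IP libraries, where it was no longer called (adjusted p 0.113 to 0.131). Pde7b, a cyclic AMP-specific enzyme also rich in striatum, had 36.4, 21.5 and 29.8 CPM in IP and 69.0, 44.6 and 140 CPM in input (-1.53, SE 0.39, adjusted p 0.0098), and -0.99 without input replicate 3 (adjusted p 0.0134). Pde2a, stimulated by cyclic GMP, had 30.8, 32.3 and 26.4 CPM in IP and 59.3, 66.5 and 137 CPM in input (-1.56, SE 0.30, adjusted p 0.00267), and -1.10 without that library (adjusted p 0.00103). Of the exon bases of Pde2a, 64.3% overlap the same-strand gene Gm45837, and reads counted as ambiguous made up 1.59% to 1.68% of all counts in IP and 8.03% to 10.9% in input. Their part in its fall was not tested.

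Of the calcium-dependent PDE1 genes, Pde1a fell and the others did not pass. Pde1a had 59.3 to 75.3 CPM in IP and 91.3 to 152 CPM in input and fell by 0.98 (SE 0.20, adjusted p 0.00357 in edgeR). Pde1b had 123, 133 and 144 CPM in IP and 79.0, 62.1 and 166 CPM in input. Again only input replicate 3 exceeded IP. Pde1b did not pass with all libraries (0.38, SE 0.32, adjusted p 0.336) and was higher without input replicate 3 (0.90, adjusted p 0.00208). Pde1c had -0.36 (SE 0.19) and did not pass. Pde7a fell by 0.83 (SE 0.16, adjusted p 0.00286) and Pde3b by 0.92 (SE 0.21, adjusted p 0.00687). Pde3a did not pass, at -0.13.

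Pde5a, a cyclic GMP-specific enzyme known from Purkinje cells and smooth muscle, had 1 library far from the rest. It had 2.44, 21.1 and 2.38 CPM in IP and 10.8, 10.5 and 7.11 CPM in input. With all libraries the log2 fold change was -0.14 (SE 0.77, adjusted p 0.893), and without IP replicate 2 it was -2.01 (adjusted p 0.00192 in edgeR). The Purkinje cell gene Car8 was high in the same IP library, at 555 CPM, and its part in the Pde5a value was not tested. Pde9a, which also degrades cyclic GMP, was highest in IP replicate 2, at 19.2 CPM against 12.7 and 9.63, and did not pass (0.33, SE 0.24). Pde11a and Pde6g, at 1.46 CPM or less in group means, did not pass. Pde6a, Pde6b, Pde6c and Pde6h, of the retinal photoreceptor enzymes, were not tested, with at most 32 counts in a library. Pde6c had 0, 0 and 3 counts in IP and 21, 32 and 0 in input. It passed the filter when input replicate 3, the input library at 0, or any 1 IP library was left out, each time through input alone. Without IP replicate 1, 2 or 3 it was not called (adjusted p 0.14, 0.153 and 0.0618 in edgeR). Without input replicate 3 it was called lower (adjusted p 0.0136), and the direction of that call was fixed by the filter.

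**Figure D4:**
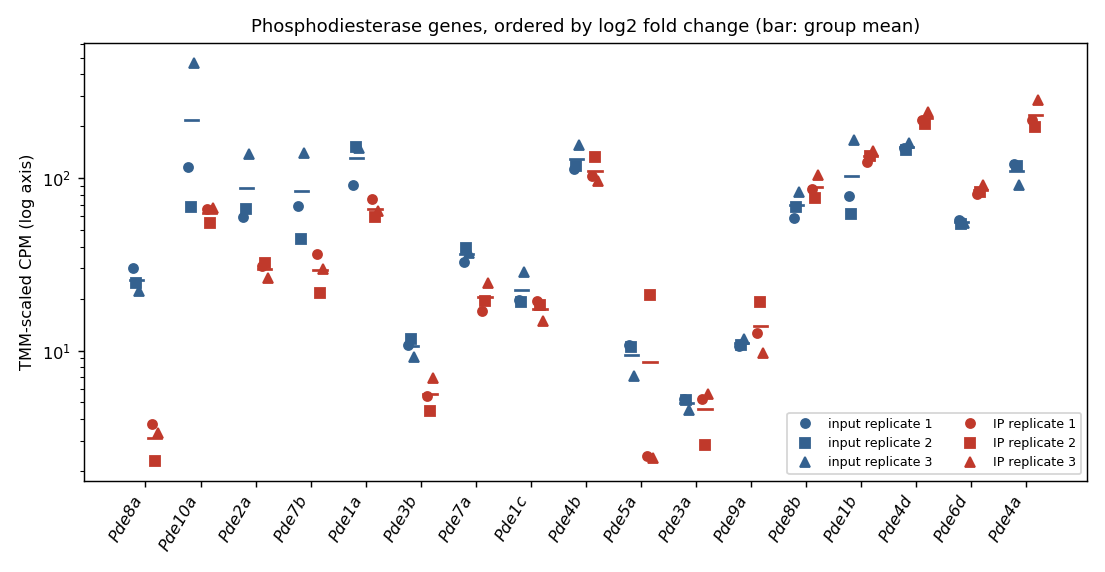
TMM-scaled CPM on a log axis for the 17 tested phosphodiesterase genes with an average log2 CPM above 2, ordered from the lowest to the highest log2 fold change. Blue symbols are input and red symbols IP, with circle, square and triangle for replicates 1, 2 and 3 and bars for group means. Input replicate 3 stands above the other inputs in Pde10a, Pde2a, Pde7b and Pde1b, and IP replicate 2 stands above the other IP libraries in Pde5a.

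Anchoring protein genes fell or did not pass. Akap5, whose protein tethers the kinase, calcineurin and protein kinase C at the postsynaptic membrane, had 27.8, 23.1 and 23.9 CPM in IP and 61.2, 75.0 and 212 CPM in input. Its lowest input library was over the highest IP library and input replicate 3 was the highest by far (log2 fold change -2.22, SE 0.43, adjusted p 0.00277 in edgeR). Without input replicate 3 the value was -1.47 (adjusted p 0.000285). Akap13, a large anchoring protein, had 13.3, 11.0 and 9.98 CPM in IP and 37.8, 61.0 and 48.6 CPM in input (-2.10, SE 0.20, adjusted p 0.000103). Akap8, a nuclear anchoring protein, had 28.0, 26.9 and 31.2 CPM in IP and 57.1, 56.4 and 47.8 CPM in input (-0.91, SE 0.12, adjusted p 0.00055). Akap9, a centrosome and Golgi scaffold, had 164, 165 and 171 CPM in IP and 238, 277 and 411 CPM in input (-0.89, SE 0.19, adjusted p 0.00431). Akap7, a small membrane-bound anchor, fell by 0.82 (SE 0.13, adjusted p 0.00107).

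Akap11, a GSK3-binding anchor and the most abundant of the class, had 309, 280 and 286 CPM in IP and 394, 368 and 380 CPM in input. The groups were apart by a small margin, and Akap11 fell by 0.39 on the log2 scale (SE 0.10, adjusted p 0.00967 in edgeR). Akap14, of motile cilia, had 7, 8 and 7 counts in IP and 34, 18 and 80 in input. It passed the filter through input alone. The fitted log2 fold change was -2.59 (adjusted p 0.012), and -1.82 without input replicate 3 (adjusted p 0.0597). That library was also high in choroid plexus and ependymal markers, whose sum was 1407 CPM there, 406 and 48.1 CPM in input replicates 1 and 2 and 22.1 to 51.7 CPM in IP. Their part in the Akap14 value was not tested. Akap6, of the nuclear envelope, had 197 to 215 CPM in IP and 209 to 229 CPM in input, with ranges that overlap (-0.09, SE 0.10, adjusted p 0.462). Akap1, a mitochondrial anchor, Akap10, Akap12 and Akap3 did not pass, with log2 fold changes of -0.15, 0.02, -0.02 and -0.47. Akap4 had no count in any library. Akap2 had 1 to 6 counts per library and 84.4% of its exon bases overlap Pakap on the same strand, so its level is uncertain.

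Other scaffolds of the kinase or of phosphodiesterases, listed apart from the symbol rule, were also compared. Of 11 tested, 4 fell, or 36.4%, against 27.9% of all tested genes. Map2, Nbea, Akap8l and Pcnt fell by 0.85, 0.65, 0.66 and 0.36 on the log2 scale. Akap17b, Pde4dip, Wasf1, Myrip, Cbfa2t3 and Sphkap did not pass, at -0.06, -0.11, -0.30, -0.32, -0.74 and 0.25. Another of the list is not reported here. Summed over all its members, the anchoring class had 76.3 to 86.3 CPM per kilobase in IP and 114 to 134 in input.

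Several members were high in input replicate 3. Among 46 tested members with a mean of at least 1 CPM in each group, 10 had over 1.5 times the mean of the other inputs in that library, or 21.7%, against 4.41% of 13141 genes selected the same way. In the other direction, 6 members were under the mean of the other inputs by the same factor, or 13.0%, against 9.44% of those genes. The 10 high members were Pde10a at 5.09 times, Akap5 at 3.11, Pde7b at 2.46, Pde1b at 2.36, Adcy5 at 2.27, Pde2a at 2.19, Prkar2b at 1.68, Gucy1a3 at 1.62, Akap9 at 1.60 and Gucy1b3 at 1.52. The 10 striatal markers summed to 4.79 times the mean of the other inputs in the same library, at 1073 CPM against 295 and 153, and 257 to 412 CPM in IP. None of the striatal markers was at 0 in every library of a group, although Adora2a was at 0.0458 CPM in input replicate 2. Their part in the member values was not tested beyond leaving the library out. Without it, 9 members moved by more than 0.4 on the log2 scale, 7 of them upward. Prkar2b, Pde1b, Gucy1a3 and Pde8b, not called with all libraries, were then called higher in IP and Pde6c lower, while Pde10a, Adcy3, Adcy8 and Akap14 were no longer called.

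**Figure D5:**
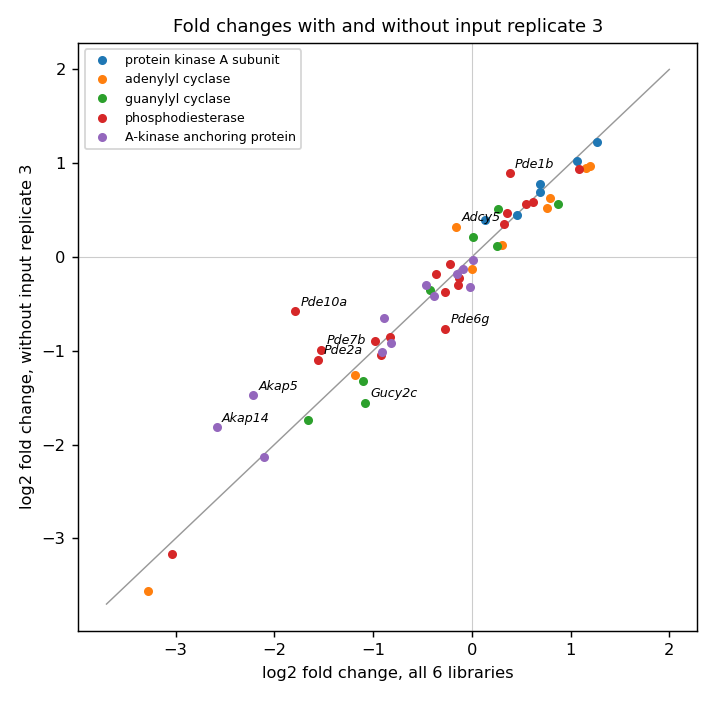
Log2 fold change of IP over input with all 6 libraries (x axis) and without input replicate 3 (y axis) for the 54 tested members, coloured by class, with the line of equal values. Genes that moved by more than 0.4 are named. Pde10a moved from -1.79 to -0.58 and Pde1b from 0.38 to 0.90, while the called kinase subunits stayed close to the line.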

How the data were processed

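RNA of 3 IP and 3 input libraries was sequenced. The authors deposited a file of raw counts by gene symbol for each library, made with STAR 2.0.0e and HTSeq on build mm10, per the submitters' processing notes. What annotation, strand option and counting mode they used is not given in the sources used here. Each file ends in 6 lines without a gene, which were kept out of totals. Groups and replicate numbers came from the titles. Same-numbered IP and input libraries share a lane number in their labels, and their deviations from group means correlated at 0.155, 0.0744 and 0.0506. The highest such correlation between differently numbered IP and input libraries was 0.0207. The main fit had no block.

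Genes were filtered with filterByExpr by group (minimum count 10, total 15), which kept 17197, with TMM scaling, and the test was run in edgeR 4.0.16 (R 4.3.3; robust quasi-likelihood F test, two-sided, Benjamini-Hochberg over all tested genes, threshold 0.05), with glmTreat for changes over 2-fold. The SE is the log2 fold change divided by the square root of F. CPM use TMM-scaled totals. In simulated counts 200 of 16858 genes were changed, and 52.0% of 2-fold and 80.4% of 4-fold changes were recovered. Of the calls 9.15% were false, above the threshold of 0.05. Among the real genes 26.0% were called higher and 27.9% lower, a far larger share, so these rates need not hold there. Positions and exon lengths (union of exons) are from GENCODE M21 and promoters from RefSeq (GRCm38.p6), whose assembly is mm10. All 63 members matched GENCODE, 2 through a newer symbol. Floors cover counting error only. Members, lists and alternatives were chosen with earlier results of these data known. Values per library were given for all kinase subunits and, in each other class, for up to 4 called rises and 4 falls and the 2 most abundant members. Pathway genes were named where they passed, except for a result that is not reported here, and others after their values were seen. The fit was repeated without the filter, with DESeq2 1.42.0, with a replicate block, without single libraries, and with scaling by RLE, by upper quartiles or by totals.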

Additional observations from a re-analysis of the deposited data

How the results depend on the processing

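Over 13 alternatives to the reported fit, 9 of the 12 members called higher and 15 of the 18 called lower kept their call in each one. No called member changed sign. The 2-fold falls were 3 in the reported fit, 6 under upper-quartile scaling and 6 when libraries were scaled by their totals. They were 2 with DESeq2, 2 with the replicate block and 2 without the low-count filter. With a library left out they were 2 to 5 (5 without input replicate 2, 2 without IP replicate 3). Adenylyl cyclases called higher were 4, 2 to 4 with a library left out (2 when IP replicate 1, the second IP library or input replicate 3 was the one), and 1 without both IP replicate 2 and input replicate 3. Cyclases called lower were 2, and 1 to 2 with a library left out (1 without input replicate 1). Guanylyl cyclases called higher were 0, against 0 to 1 with a library left out (1 without input replicate 3) and 1 without both. Phosphodiesterases called higher were 3, against 3 to 5 with a library left out (5 without input replicate 3) and 5 without both. With the replicate block, 13 members were higher and 17 lower, and it changed the calls of Pde10a and Pde8b and of no other member. DESeq2 gave 12 and 18, with Pde6c called lower and Pde10a not called. With 3 libraries a group and counts under about 10 in a library, changes of genes such as Adcy10, Akap14, Gucy1b2 and Pde6g are known with little precision.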
